A study of Homo sapiens with 22 samples.

Results

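The response of HN-6 cells to a SMYD3 siRNA was set against their response to a UHRF1 siRNA, gene by gene. HN-6 is an established human squamous carcinoma line of head and neck origin. Each response is the log2 fold change between the knockdown and the negative control siRNA (siNC) of the same count table, and the quantity described is the SMYD3 siRNA effect minus the UHRF1 siRNA effect. A positive difference means that a gene rose more, or fell less, with the SMYD3 siRNA. The comparison uses 12 of the 22 RNA-seq libraries of the series: 3 with the SMYD3 siRNA (si1SMYD3), 3 with its siNC, 3 with the UHRF1 siRNA (siUHRF1) and 3 with the siNC of that experiment. Knockdown lasted 72 h, and the cells of all 4 groups received human interferon-β at 1000 U/ml for the last 24 h, per the treatment protocol and the design text, so none of these libraries shows cells without interferon. The treatment label of each sample, however, names interferon-β in the UHRF1 experiment only. The protocol was followed here. If exposure did differ between the experiments, it and the experiment could not be told apart. The labels name 1 siRNA against SMYD3, do not say whether siUHRF1 is a single sequence or a pool, and call the replicates biological. Both knockdowns were transient, and they were sequenced as separate experiments, so wherever the effects differ, the target gene and the experiment cannot be told apart. The comparison bears on which parts of the SMYD3 response, in a study of interferon genes repressed by SMYD3, also follow depletion of UHRF1.

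SMYD3 is a lysine methyltransferase of the SET and MYND domain family, with reported substrates among histones and cytoplasmic kinases. UHRF1 binds hemimethylated DNA and methylated histone H3 and recruits the maintenance methyltransferase DNMT1 to newly replicated DNA, and it is itself expressed mainly in dividing cells. Interferon-β acts through the receptor chains IFNAR1 and IFNAR2, the kinases JAK1 and TYK2 and a complex of STAT proteins with IRF9, which binds interferon-stimulated response elements (ISRE) in the promoters of antiviral genes.

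Both tables listed 55142 gene symbols, without the 37 mitochondrially encoded genes, which had 0 reads in every UHRF1 library and 5.73% to 10.2% of the reads in the SMYD3 libraries. Of these symbols, 17119 passed the filter on low counts in both tables and were tested. Total reads in genes ranged between 32427075 and 54095433 in the SMYD3 libraries and between 57588142 and 62921144 in the UHRF1 libraries. Levels are given as CPM, the read count scaled to the library total, adjusted by TMM factors within each table. Because the tables were counted and scaled separately, a level in one is set beside a level in the other as a description. A gene is called at an adjusted p under 0.05 (edgeR quasi-likelihood test, Benjamini-Hochberg), and "rose" and "fell" are used of called genes. The SE given is derived from that test, as the log2 value without its sign divided by the square root of the F statistic. Where a pair of values stands in brackets after 1 gene, the first is its log2 fold change with the SMYD3 siRNA and the second that with the UHRF1 siRNA.

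Each siRNA lowered its own target, and both targets fell in both experiments. SMYD3 (chromosome 1, 245749342 to 246507312, minus strand of GRCh38) had 2.83, 3.21 and 3.19 CPM with the SMYD3 siRNA, against 17.9, 14.2 and 16.8 CPM with siNC. Its levels were 7.95, 8.34 and 8.91 CPM with the UHRF1 siRNA, against 12.3, 13.6 and 11.5 CPM with siNC. The libraries of knockdown and control did not overlap in either experiment, and the log2 fold changes were −2.41 and −0.57, a difference of −1.83 ± 0.15 (SE; adjusted p = 2.87e-10). UHRF1 (chromosome 19, 4903080 to 4962154, plus strand of GRCh38) had 2.77, 3.16 and 3.96 CPM with the SMYD3 siRNA, against 12.1, 9.12 and 10.5 CPM with siNC. In the UHRF1 experiment it had 1.88, 2.69 and 2.1 CPM with the siRNA, against 66.5, 63.2 and 64.2 CPM with siNC. All knockdown libraries again lay below all control libraries, with log2 fold changes of −1.68 for the SMYD3 siRNA and −4.86 for the UHRF1 siRNA and a difference of 3.17 ± 0.18 (SE; adjusted p = 9.39e-13). The SMYD3 siRNA libraries were thus libraries with low UHRF1 RNA as well, and the control level of UHRF1 also differed between the tables. In bulk RNA, fewer cells that express a gene and less RNA per cell cannot be told apart.

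Across genes the responses overlapped in part. With the SMYD3 siRNA, 4376 genes rose (25.6% of those tested) and 4389 fell (25.6%), together 51.2%, and by at least 1 on the log2 scale 466 rose (2.72%) and 716 fell (4.18%). The UHRF1 siRNA gave 5687 rises (33.2%) and 5797 falls (33.9%), together 67.1%, of which 1222 rises (7.14%) and 1710 falls (9.99%) reached that size. The difference was called for 9631 genes (56.3%), of which 4954 (28.9%) were higher and 4677 (27.3%) lower with the SMYD3 siRNA. Differences of at least 1 were called as higher for 1824 genes (10.7%) and lower for 1530 (8.94%). The knockdown and control libraries did not overlap for 10042 genes (58.7%) in the SMYD3 experiment and 11959 genes (69.9%) in the UHRF1 experiment. Pearson's r between the log2 fold changes over the 17119 genes was 0.217 and Spearman's rho 0.204, and 57.7% of genes had the same sign. Among the 6530 genes called in both experiments r was 0.325 and the share of the same sign 64.7%. These are descriptions across genes, which are not independent replicates, although no library was shared. The SD of the log2 fold changes was 0.551 for the SMYD3 siRNA and 0.87 for the UHRF1 siRNA.

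Genes were then sorted by what the 3 tests called. Shared genes rose in both experiments (2133 genes, 12.5% of those tested) or fell in both (2093, 12.2%). Opposite genes were called in both with opposite signs: 1206 (7.04%) rose with the SMYD3 siRNA and fell with the UHRF1 siRNA, and 1098 (6.41%) did the reverse. Specific genes were called in one experiment only, with the difference also called: 712 rose (4.16%) and 757 fell (4.42%) with the SMYD3 siRNA, and 1832 rose (10.7%) and 1797 fell (10.5%) with the UHRF1 siRNA. The shared rises made up 48.7% of all rises with the SMYD3 siRNA and 37.5% of those with the UHRF1 siRNA, and the shared falls 47.7% and 36.1% of the falls, in the same order of siRNAs. Of the shared rises, 358 were larger with the SMYD3 siRNA, 617 were larger with the UHRF1 siRNA, and 1158 had no called difference. Of the shared falls, 269 were larger with the SMYD3 siRNA and 783 with the UHRF1 siRNA. With log2 values of at least 1 required throughout, 94 shared rises (0.549%), 245 shared falls (1.43%), 70 opposite genes higher with the SMYD3 siRNA (0.409%) and 71 higher with the UHRF1 siRNA (0.415%) were left. The specific classes then held 97 rises (0.567%) and 125 falls (0.73%) with the SMYD3 siRNA, against 439 rises (2.56%) and 539 falls (3.15%) with the UHRF1 siRNA.

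**Figure D1:**
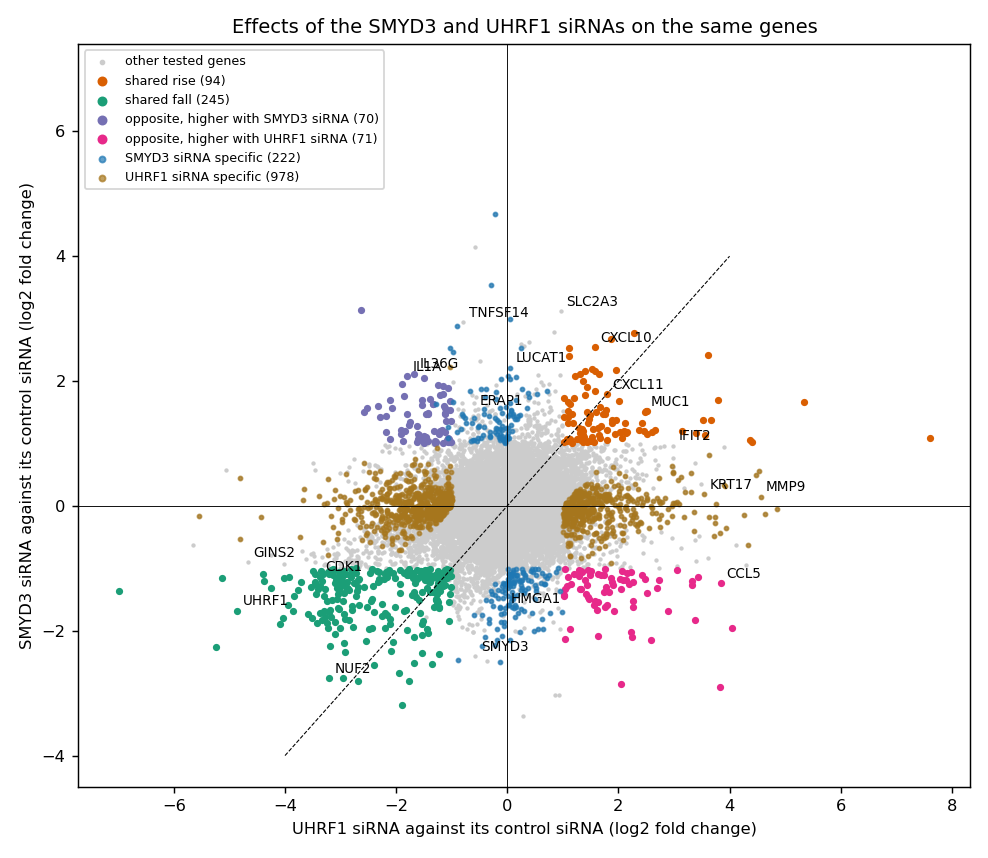
Log2 fold change of each of the 17119 tested genes with the SMYD3 siRNA (vertical axis) and with the UHRF1 siRNA (horizontal axis), each against its own control siRNA; the dashed line marks equal effects. Coloured points are the classes with log2 values of at least 1: 94 shared rises, 245 shared falls, 70 and 71 opposite genes, and the specific genes (97 rises and 125 falls with the SMYD3 siRNA, 439 rises and 539 falls with the UHRF1 siRNA), which lie along the axes.

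Median differences varied between the gene lists. Among lists with 5 or more tested genes, the largest positive median differences belonged to DNA replication (2.09), homologous recombination (1.66) and mitosis (1.5), where the UHRF1 siRNA lowered RNA further. Next came replication-dependent histones (1.03), class II antigen presentation (0.74), G1 regulators (0.60) and the CXCR2 ligands with the interleukin-1 family and other cytokines (0.50). At the negative end were keratinocyte differentiation (−1.10), the 5 tested leukocyte markers (−0.77), the CXCR3 ligands with CC and other chemokines (−0.46), the relatives of SMYD3 (−0.38) and interferon signalling components (−0.30). Over all tested genes the median log2 fold change was −0.01 for each siRNA. Counts within the lists stand against the shares over all tested genes. These were 25.6% rises and 25.6% falls with the SMYD3 siRNA, and 33.2% rises and 33.9% falls with the UHRF1 siRNA. The difference was higher for 28.9% and lower for 27.3%.

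**Figure D2:**
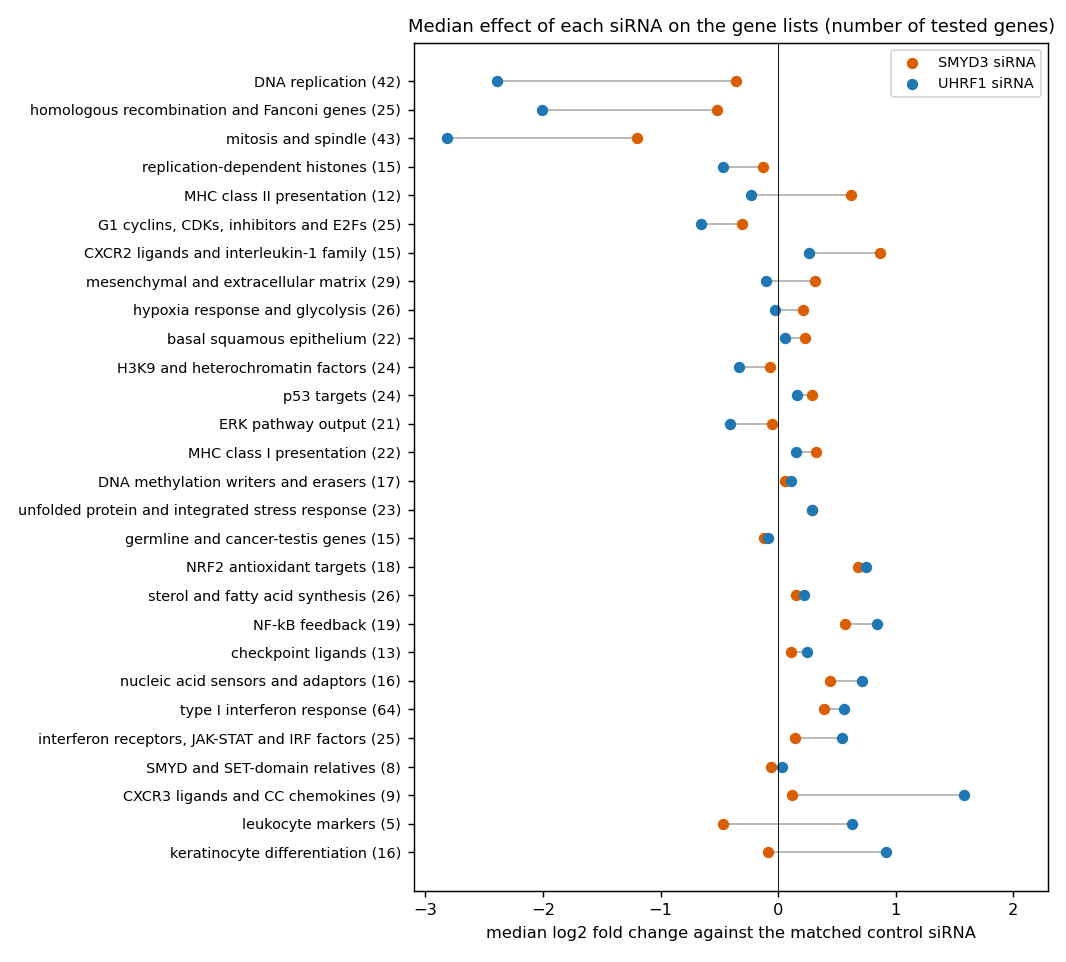
Median log2 fold change of each gene list with the SMYD3 siRNA (orange) and the UHRF1 siRNA (blue), each against its own control siRNA, with the number of tested genes in brackets; the grey line joins the pair. The pairs at the top, DNA replication, homologous recombination and mitosis, are those where the UHRF1 siRNA lies furthest below the SMYD3 siRNA, and keratinocyte differentiation at the bottom shows the reverse.

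Most genes of the type I interferon response rose with each siRNA. Of its 64 tested genes, 40 rose and 5 fell with the SMYD3 siRNA (median log2 fold change 0.39; 25.6% of all tested genes rose and 25.6% fell), and 58 rose and 3 fell with the UHRF1 siRNA (median 0.56; 33.2% of all tested genes rose and 33.9% fell). The shared rises numbered 37, and over all tested genes they made up 12.5%. The difference was called as lower with the SMYD3 siRNA for 32 genes (50%, against 27.3% of all tested genes) and higher for 6 (9.38%, against 28.9%), with a median of −0.23. The median control level of this list was 435 CPM in the SMYD3 experiment and 279 CPM in the UHRF1 experiment. All tested genes had 18.3 and 15.1 CPM, in the same order. The part of these starting levels in the difference was not tested. The list was assembled with earlier results of these data known, so its direction is a description.

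CXCL10, the chemokine that draws CXCR3-bearing T cells, rose in both experiments and more with the SMYD3 siRNA. It (chromosome 4, 76021118 to 76023497, minus strand of GRCh38) had 715, 716 and 567 CPM with the SMYD3 siRNA, against 133, 108 and 103 CPM with siNC. The UHRF1 siRNA libraries had 114, 118 and 116 CPM, against 37, 45.9 and 33.6 CPM with siNC. Every knockdown library exceeded every control library of its table, and the log2 fold changes of 2.54 and 1.58 differed by 0.96 ± 0.16 (SE; adjusted p = 5.85e-05). Its neighbour CXCL11 rose in both, with 177, 160 and 144 CPM against 49.7, 44.8 and 44.5 CPM in the SMYD3 experiment and 50.7, 59.8 and 56.8 CPM against 14.5, 17.5 and 16.1 CPM in the UHRF1 experiment. The difference was −0.01 ± 0.12 (SE; adjusted p = 0.965). CXCL9, the other ligand of that receptor, passed the filter in the SMYD3 table alone, where it rose by a log2 fold change of 2.77 (adjusted p = 6.49e-08).

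IFIT2, which binds foreign RNA and restrains its translation, had the largest difference in the list. It had 2513, 2319 and 1963 CPM with the SMYD3 siRNA, against 1102, 1251 and 1128 CPM with siNC, and 1505, 1521 and 1541 CPM with the UHRF1 siRNA, against 191, 209 and 179 CPM with siNC. It rose in both without overlap, by 0.96 and 2.98, and the difference was −2.01 ± 0.12 (SE; adjusted p = 9.91e-13). The rest of its family differed too: IFIT1, IFIT3 and IFIT5 had log2 fold changes of 0.12, 0.33 and 0.04 with the SMYD3 siRNA and 0.90, 0.94 and 0.72 with the UHRF1 siRNA, and those of IFIT1 and IFIT5 with the SMYD3 siRNA were not called. ISG15, a ubiquitin-like modifier, was not called with the SMYD3 siRNA (0.11) and rose by 0.93 with the UHRF1 siRNA. IFIT2 shares exon sequence with AL353751.1 on the same strand and with LIPA on the other strand, and no source used here says whether counting used strand. IFNGR2, APOBEC3B, IL6, CENPA, SUV39H2, LOX, HSP90B1 and ITGB8, given further on, likewise share exon sequence with another gene, so their counts are less certain.

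RSAD2, which makes a chain-terminating nucleotide from CTP, had 889, 841 and 721 CPM with the SMYD3 siRNA, against 323, 364 and 322 CPM with siNC. With the UHRF1 siRNA it had 1105, 1210 and 1197 CPM, against 345, 394 and 346 CPM with siNC. Groups did not overlap in either table, and the difference was −0.41 ± 0.11 (SE; adjusted p = 0.00339). CMPK2, its neighbour on the opposite strand with overlapping exons, rose by 0.59 and 0.56, a difference of 0.03 ± 0.11 (SE; adjusted p = 0.817). GBP5, a guanylate-binding protein of the inflammasome pathway, rose in both experiments (1.38 and 1.96), more with the UHRF1 siRNA (difference −0.58 ± 0.14 SE, adjusted p = 0.00121). OAS3, which makes the RNase L activator 2-5A, went the other way, with 0.91 and 0.17 and a difference of 0.74 ± 0.10 (SE; adjusted p = 6.67e-07). USP18, which removes ISG15 and dampens receptor signalling, rose with the SMYD3 siRNA (0.52) and fell with the UHRF1 siRNA (−0.17). APOBEC3B, a cytidine deaminase whose expression is also tied to the cell cycle, fell in both (−0.89 and −1.92).

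Some promoters of genes in different classes held the same element. RefSeq promoters (GRCh38.p14, 250 bases before to 50 after each gene's start) were matched for 11268 tested genes. The ISRE core, GAAA followed after any 2 bases by GAAA, was searched on either strand. It stood in 69.4% of 49 matched promoters of the interferon list, against 3.04% of all matched tested genes and 3.65% of all 27305 promoters in the table. The promoters of RSAD2, CMPK2, CXCL11 and STAT2 held no match. The windows below are from a gene whose rise was larger with the SMYD3 siRNA (CXCL10, chr4:76023669-76023747, minus strand), one that rose with the UHRF1 siRNA alone (IFIT5, chr10:89414483-89414567, plus strand) and one with opposite effects (B2M, chr15:44711333-44711428, plus strand). Capitals mark the matches to this core or its reverse complement that lie wholly inside the window, and those of B2M overlap.
CXCL10: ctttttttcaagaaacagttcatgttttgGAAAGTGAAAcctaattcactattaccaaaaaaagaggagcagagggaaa
IFIT5: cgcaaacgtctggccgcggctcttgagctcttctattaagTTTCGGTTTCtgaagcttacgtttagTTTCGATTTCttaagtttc
B2M: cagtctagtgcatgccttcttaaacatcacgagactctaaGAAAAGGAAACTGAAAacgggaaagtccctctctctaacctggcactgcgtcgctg
A match describes letters in the window and does not show binding.

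Of 25 tested receptors and signal carriers of the interferon pathway, 11 rose and 2 fell with the SMYD3 siRNA, where 25.6% of all tested genes rose and 25.6% fell. With the UHRF1 siRNA 22 rose and 1 fell, where 33.2% of all tested genes rose and 33.9% fell. The difference was lower for 12 (48%, against 27.3% of all tested genes) and higher for 3 (12%, against 28.9%). JAK1, a kinase of the receptor, rose in both without a called difference (0.68 and 0.48, difference 0.20 ± 0.09 SE, adjusted p = 0.0554). STAT2 was not called with the SMYD3 siRNA (−0.02) and rose by 0.89 with the UHRF1 siRNA. STAT5A, which carries cytokine and growth hormone signals, had the largest difference, with 35.4, 43.3 and 38.5 CPM against 37.8, 38.5 and 30.2 CPM in the SMYD3 experiment and 44.1, 41.9 and 41.4 CPM against 14.6, 13.6 and 12.6 CPM in the UHRF1 experiment. The SMYD3 libraries overlapped their controls and the UHRF1 libraries did not, and the difference was −1.50 ± 0.13 (SE; adjusted p = 4.37e-10). IFNGR2, a chain of the interferon-γ receptor, followed it (−1.12 ± 0.11 SE, adjusted p = 5.31e-09), whereas the other chain, IFNGR1, rose in both and more with the SMYD3 siRNA (0.88 and 0.20).

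The list of nucleic acid sensors also holds their adaptors, kinases and related enzymes. Of its 16 tested genes, 11 rose and 1 fell with the SMYD3 siRNA (against 25.6% and 25.6% of all tested genes). With the UHRF1 siRNA 13 rose and 1 fell (against 33.2% and 33.9%). The difference was lower for 8 (50%, against 27.3% of all tested genes) and higher for 2 (12.5%, against 28.9%). DDX58 (RIG-I), a sensor of RNA ends, rose in both (0.79 and 0.87, difference −0.08 ± 0.09 SE, adjusted p = 0.488). IFIH1 (MDA5), the sensor of long double-stranded RNA, had 363, 343 and 326 CPM against 303, 309 and 301 CPM in the SMYD3 experiment and 368, 341 and 341 CPM against 152, 162 and 152 CPM in the UHRF1 experiment. No group overlapped its control, yet the SMYD3 effect of 0.18 was not called (adjusted p = 0.063; 0.027 with DESeq2) while the UHRF1 effect was 1.18, and the difference was called as lower (adjusted p = 1.18e-09). SAMHD1, which depletes nucleotides, rose with the SMYD3 siRNA (0.61) and fell with the UHRF1 siRNA (−0.31).

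Of 22 tested class I genes, 13 rose and 3 fell with the SMYD3 siRNA (against 25.6% and 25.6% of all tested genes). With the UHRF1 siRNA 12 rose and 7 fell (against 33.2% and 33.9%). The difference was higher for 8 (36.4%, against 28.9% of all tested genes) and lower for 7 (31.8%, against 27.3%), with a median of 0.07. The higher ones included chaperones (CANX and PDIA3) and peptide trimmers (ERAP1 and ERAP2), and the lower ones PSMB8, PSMB10, PSME1 and PSME2 of the proteasome. ERAP1, the aminopeptidase that trims peptides in the endoplasmic reticulum, had 202, 215 and 199 CPM with the SMYD3 siRNA, against 76.7, 69.8 and 66.3 CPM with siNC. Its levels were 174, 159 and 160 CPM with the UHRF1 siRNA, against 244, 260 and 238 CPM with siNC. The groups separated in opposite directions, with log2 fold changes of 1.53 and −0.59 and a difference of 2.12 ± 0.10 (SE; adjusted p = 8.74e-15). ERAP1 shares exon sequence with CAST on the other strand.

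B2M, the light chain of every class I molecule, had 3543, 3336 and 3198 CPM with the SMYD3 siRNA, against 2576, 2697 and 2871 CPM with siNC, and 1254, 1399 and 1441 CPM with the UHRF1 siRNA, against 2045, 2418 and 2402 CPM with siNC. It rose without overlap in one experiment and fell without overlap in the other (0.31 and −0.75), and the difference was 1.05 ± 0.11 (SE; adjusted p = 2.99e-08). The chaperones CANX (0.91 and −0.48) and PDIA3 (0.68 and −0.15) and the trimming enzyme ERAP2 (0.56 and −0.51) were opposite in the same sense. The class I heavy chain HLA-F was not called with the SMYD3 siRNA (0.06) and rose with the UHRF1 siRNA (0.50), whereas HLA-E rose more with the SMYD3 siRNA (0.61 and 0.14). Reads of near-identical heavy chains can be assigned to the wrong member. TAPBP, which holds the peptide loader to its transporter, rose in both (0.72 and 0.66, difference 0.05 ± 0.11 SE, adjusted p = 0.719). PSMB10, an immunoproteasome subunit, fell with the SMYD3 siRNA (−0.37) and rose with the UHRF1 siRNA (0.55).

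Of 12 tested class II genes, 9 rose and the other 3 were not called with the SMYD3 siRNA (median 0.62). Of all tested genes, 25.6% rose and 25.6% fell with that siRNA. With the UHRF1 siRNA 4 rose and 4 fell (median −0.23), close to the 33.2% and 33.9% of all tested genes. The difference was higher for 7 (58.3%, against 28.9% of all tested genes) and lower for 2 (16.7%, against 27.3%). HLA-DMB, part of the editor that loads class II peptides, had 8.68, 8.59 and 7.7 CPM with the SMYD3 siRNA, against 4.94, 4.24 and 5.06 CPM with siNC. In the UHRF1 experiment it had 0.861, 1.66 and 1.42 CPM with the siRNA, against 2.35, 2.68 and 2.45 CPM with siNC. All levels were low, the groups separated in opposite directions, and the difference was 1.72 ± 0.23 (SE; adjusted p = 7.55e-07). HLA-DMA (0.48 and −0.67) and HLA-DQB1 (0.45 and −0.70) showed the same opposition. CIITA, the class II master activator, was not called with the SMYD3 siRNA (0.02) and fell with the UHRF1 siRNA (−0.86). CTSS, the protease that processes the invariant chain, and CD74, the invariant chain itself, rose in both and more with the UHRF1 siRNA (1.34 and 0.82, against 0.69 and 0.46 with the SMYD3 siRNA).

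**Figure D3:**
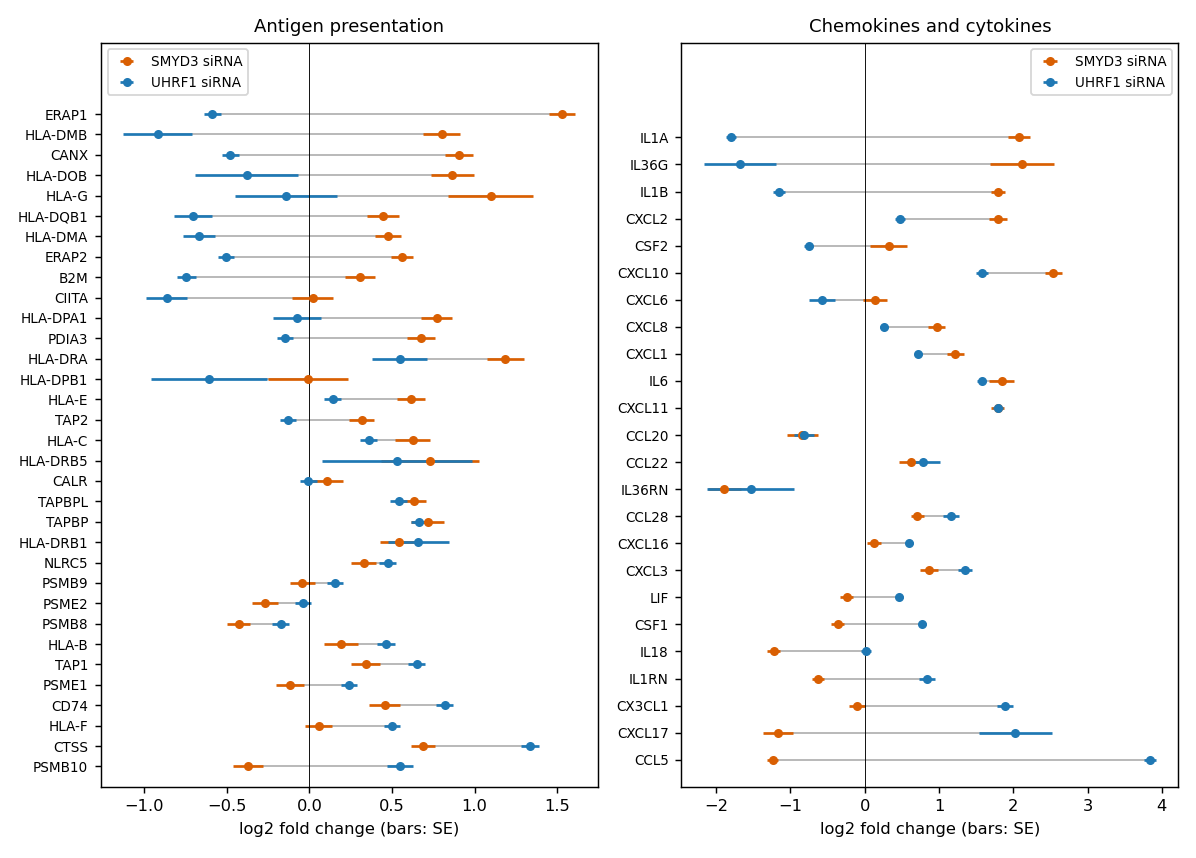
Log2 fold change (points) and its SE (bars) with the SMYD3 siRNA (orange) and the UHRF1 siRNA (blue) for tested class I and class II presentation genes, 1 of them left out (left) and chemokines and cytokines (right), ordered by the difference. ERAP1, HLA-DMB and CANX at the top left lie on opposite sides of 0, as do IL1A and IL1B at the top right and CCL5 at the bottom right.

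Chemokines and cytokines held several wide oppositions. CCL5, a chemokine for T cells and monocytes, had 22.4, 23.2 and 22 CPM with the SMYD3 siRNA, against 51.9, 54.2 and 53.6 CPM with siNC. The UHRF1 siRNA libraries had 86.8, 85.7 and 85.7 CPM, against 5.66, 7.33 and 5.01 CPM with siNC. It fell in one experiment (−1.24) and rose in the other (3.84), with no overlap in either, and the difference was −5.08 ± 0.12 (SE; adjusted p = 4.19e-19). The fall was not shared by the antisense oligonucleotide against SMYD3 described further on, with which CCL5 rose (1.17, adjusted p = 2.14e-07). The list of CXCR3 ligands and CC chemokines also holds CXCL14, CXCL16, CXCL17 and CX3CL1. Of its 9 tested genes, 4 rose and 3 fell with the SMYD3 siRNA (against 25.6% and 25.6% of all tested genes). With the UHRF1 siRNA 8 rose and 1 fell (against 33.2% and 33.9%). CX3CL1, a membrane-tethered chemokine, was not called with the SMYD3 siRNA (−0.10) and rose by 1.89 with the UHRF1 siRNA. CCL20, the CCR6 ligand, fell in both (−0.84 and −0.81, difference −0.03 ± 0.27 SE, adjusted p = 0.932).

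The list of CXCR2 ligands and the interleukin-1 family also includes IL6, IL24, LIF and the colony-stimulating factors CSF1, CSF2 and CSF3. Its 15 tested genes held 3 opposite genes in each sense. Over all tested genes 7.04% were opposite and higher with the SMYD3 siRNA, and 6.41% with the UHRF1 siRNA. IL1A, an alarmin of damaged epithelium, had 20.3, 23.3 and 22.4 CPM with the SMYD3 siRNA, against 6.75, 4.21 and 4.56 CPM with siNC. With the UHRF1 siRNA it had 10.7, 11.4 and 11.1 CPM, against 36, 39 and 40.6 CPM with siNC. The SMYD3 libraries lay above and the UHRF1 libraries below their controls, with log2 fold changes of 2.08 and −1.80 and a difference of 3.88 ± 0.16 (SE; adjusted p = 3.43e-15). IL1B, its secreted relative, was opposite in the same sense (1.79 and −1.16), and IL1RN, the receptor antagonist, showed the reverse (−0.63 and 0.84). The neutrophil attractants CXCL1, CXCL2 and CXCL8 rose in both and more with the SMYD3 siRNA, by 1.22, 1.79 and 0.97 against 0.72, 0.48 and 0.26 with the UHRF1 siRNA. IL6 rose in both (1.85 and 1.58, difference 0.26 ± 0.21 SE, adjusted p = 0.298). Over the 15 tested genes of this list, 8 rose and 5 fell with the SMYD3 siRNA (against 25.6% and 25.6% of all tested genes). With the UHRF1 siRNA 8 rose and 6 fell (against 33.2% and 33.9%). The difference was higher for 8 (53.3%, against 28.9% of all tested genes) and lower for 5 (33.3%, against 27.3%).

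**Figure D4:**
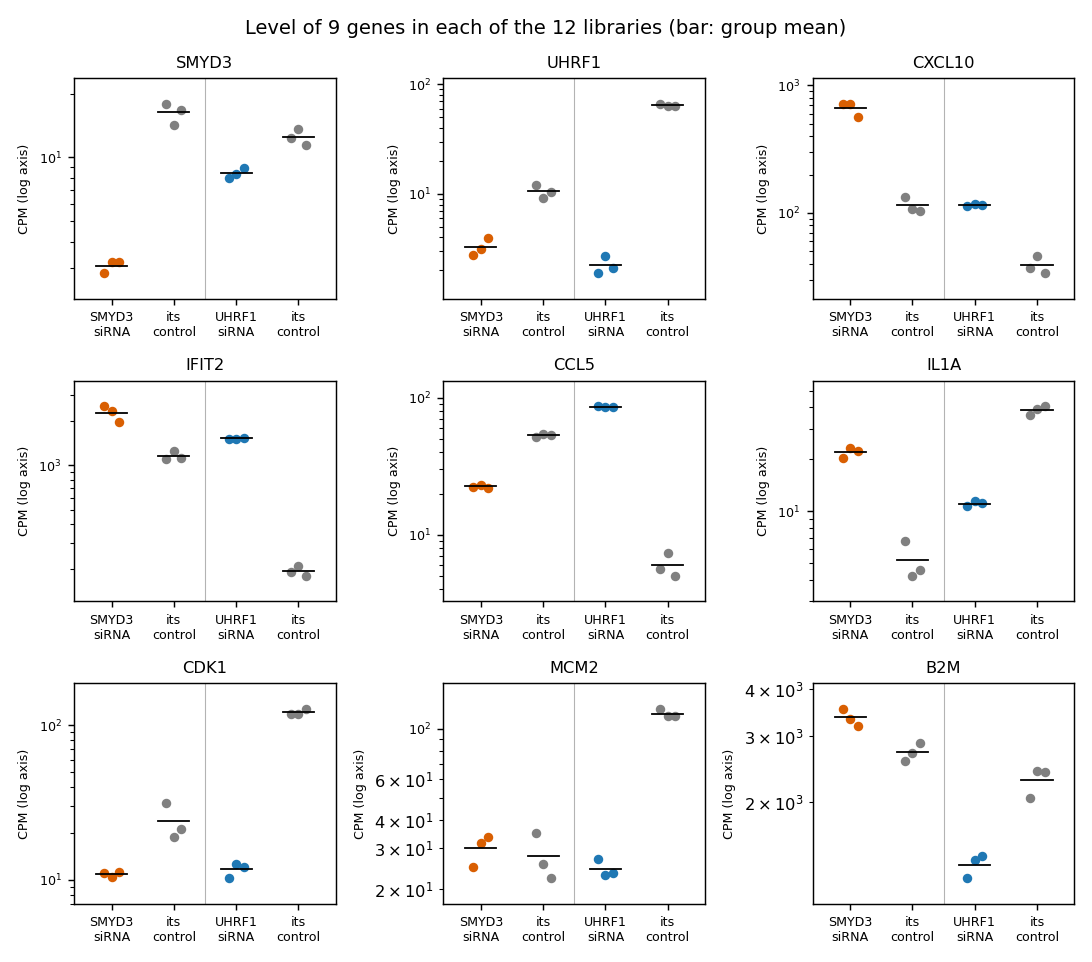
Level in TMM-scaled CPM (log axis) of 9 genes in each of the 12 libraries: SMYD3 siRNA and its control to the left of the grey line, UHRF1 siRNA and its control to the right, with bars at group means. CXCL10 and IFIT2 are above their controls in both experiments, CCL5, IL1A and B2M move in opposite directions, CDK1 is lower in both, and MCM2 is lower with the UHRF1 siRNA alone.

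Checkpoint ligands were shared in part. CD274, which encodes PD-L1, had 55.9, 50.6 and 48.8 CPM with the SMYD3 siRNA, against 29.9, 29.9 and 32.2 CPM with siNC, and 131, 140 and 148 CPM with the UHRF1 siRNA, against 67.8, 79.5 and 71.6 CPM with siNC. It rose in both without overlap, and the difference was −0.18 ± 0.10 (SE; adjusted p = 0.13). Without si1SMYD3 replicate 1 the difference was called as lower (−0.24, adjusted p = 0.0345). TNFSF14 (LIGHT), a ligand of HVEM and of the lymphotoxin-β receptor, had 36.7, 35.5 and 40.4 CPM with the SMYD3 siRNA, against 4.65, 4.21 and 5.6 CPM with siNC, and 2.24, 1.79 and 1.81 CPM with the UHRF1 siRNA, against 3.13, 3.4 and 3.55 CPM with siNC. The rise of 2.95 and the fall of −0.79 gave a difference of 3.73 ± 0.16 (SE; adjusted p = 6.22e-15). VTCN1, the B7-H4 ligand, was not called with the SMYD3 siRNA (0.11) and rose by 2.34 with the UHRF1 siRNA. NT5E, which makes adenosine outside the cell, fell in both (−1.49 and −2.43). Of 13 tested ligands and enzymes, 4 rose and 3 fell with the SMYD3 siRNA (against 25.6% and 25.6% of all tested genes). With the UHRF1 siRNA 8 rose and 5 fell (against 33.2% and 33.9%). The difference was higher for 3 (23.1%, against 28.9%) and lower for 5 (38.5%, against 27.3%).

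Of the feedback targets of NF-kB, 13 of 19 rose and 2 fell with the SMYD3 siRNA (against 25.6% and 25.6% of all tested genes), a median of 0.57. With the UHRF1 siRNA 16 rose and 2 fell (against 33.2% and 33.9%), a median of 0.84. RELB, REL and NFKBIA were shared without a called difference (differences of −0.07, 0.03 and −0.10). TNFAIP3 (A20), a deubiquitinase that shuts the pathway off, rose more with the SMYD3 siRNA (1.51 and 0.76). TRAF1, an adaptor of TNF receptors, rose more with the UHRF1 siRNA (0.90 and 2.43, difference −1.52 ± 0.14 SE, adjusted p = 1.06e-09). NFKB1 itself rose with the SMYD3 siRNA alone (0.98, against −0.10).

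With the exception of RPA2, the tested genes of the mitosis, replication and recombination lists had differences above 0. Of 43 tested mitosis genes, 41 fell and 1 rose with the SMYD3 siRNA (median −1.20). All 43 fell with the UHRF1 siRNA (median −2.82). Over all tested genes, 25.6% fell and 25.6% rose with the SMYD3 siRNA, and 33.9% fell and 33.2% rose with the UHRF1 siRNA. Of the differences of mitosis genes 40 were higher, against 28.9% of all tested genes, and the other 3 were not called. Of 42 tested replication genes, 25 fell and 4 rose with the SMYD3 siRNA (median −0.36), 42 fell with the UHRF1 siRNA (median −2.39), and 41 differences were higher. The share that fell with the SMYD3 siRNA was therefore larger among mitosis genes than among replication genes, while the UHRF1 siRNA lowered every tested gene of both lists. That contrast between the lists is a description and was not tested. In the control libraries the median level of these lists differed between the tables: the mitosis genes had 19.4 CPM in the SMYD3 experiment and 82.5 CPM in the UHRF1 experiment, the replication genes 23.3 and 69.8 CPM, and all tested genes 18.3 and 15.1 CPM, in the same order. The part of these starting levels in the difference was not tested.

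CDC20, an activator of the anaphase-promoting complex, had 6.46, 8.07 and 8.26 CPM with the SMYD3 siRNA, against 48.1, 31.5 and 29.1 CPM with siNC. Its levels were 16.5, 19.6 and 21.4 CPM with the UHRF1 siRNA, against 184, 169 and 174 CPM with siNC. Both knockdowns lay below all their controls, of which replicate 1 of the SMYD3 experiment was the highest in its table, and the difference was 0.94 ± 0.26 (SE; adjusted p = 0.00946). MAD2L1 and NUF2, of the spindle checkpoint and the outer kinetochore, fell in both. MAD2L1 (−2.76 and −2.96) had a difference of 0.20 ± 0.21 (SE; adjusted p = 0.424), and NUF2 (−2.76 and −3.21) one of 0.44 ± 0.22 (SE; adjusted p = 0.098). The difference of NUF2 was called without control replicate 1 of the SMYD3 experiment (0.63, adjusted p = 0.01), and so was that of CENPA (0.57, adjusted p = 0.00739; 0.37 with all libraries). CDK1, the mitotic kinase, had 11.1, 10.4 and 11.2 CPM with the SMYD3 siRNA, against 31.4, 19 and 21.4 CPM with siNC, and 10.2, 12.6 and 12.1 CPM with the UHRF1 siRNA, against 118, 118 and 128 CPM with siNC. It fell in both without overlap, and less with the SMYD3 siRNA (difference 2.24 ± 0.20 SE, adjusted p = 2.17e-07). CDC25B, a phosphatase that activates cyclin-dependent kinases, was the 1 gene of the list that rose with the SMYD3 siRNA (0.45, against −0.71 with the UHRF1 siRNA), and KIF18A the 1 that was not called there (−0.02).

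The replication genes named differed in size of effect. MCM2, a subunit of the replicative helicase, had 24.9, 31.8 and 33.6 CPM with the SMYD3 siRNA, against 35.1, 25.7 and 22.2 CPM with siNC. The UHRF1 siRNA libraries had 26.9, 23 and 23.5 CPM, against 122, 114 and 113 CPM with siNC. The SMYD3 libraries overlapped their controls, the UHRF1 libraries lay below theirs, and the difference was 2.37 ± 0.21 (SE; adjusted p = 4.03e-07). Without control replicate 1, the SMYD3 effect on MCM2 became a called rise (0.33, adjusted p = 0.0384). GINS2, of the same helicase complex, had 4.5, 5.12 and 5.09 CPM with the SMYD3 siRNA, against 9.99, 8.74 and 8.73 CPM with siNC, and 1.17, 1.54 and 1.76 CPM with the UHRF1 siRNA, against 39, 35.8 and 39.3 CPM with siNC. It fell in both without overlap and had the largest difference of the list, 3.77 ± 0.16 (SE; adjusted p = 4.66e-15). POLE2, a subunit of the leading-strand polymerase, was not called with the SMYD3 siRNA (0.03) and fell with the UHRF1 siRNA (−3.30). Of the nucleotide suppliers, TYMS (−0.93 and −4.01) and RRM2 (−0.73 and −3.70) fell in both. RPA2, of the single-strand binding complex, was the exception, with falls of −1.51 and −1.29 and a difference of −0.22 ± 0.12 (SE; adjusted p = 0.106), which was called under upper quartile scaling and without siUHRF1 replicate 1. GINS2 and TYMS share exon sequence with GSE1 and ENOSF1.

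Of 25 tested genes of homologous recombination and the Fanconi pathway, 15 fell and 4 rose with the SMYD3 siRNA (median −0.52). Of all tested genes, 25.6% fell and 25.6% rose with that siRNA. All 25 fell with the UHRF1 siRNA (median −2.01), against 33.9% of all tested genes. All 25 differences were higher, against 28.9% of all tested genes. BRCA1 fell in both (−0.85 and −2.87). BRIP1, the helicase that binds it, had 35, 29.1 and 25.2 CPM with the SMYD3 siRNA, against 23.3, 19.4 and 19.2 CPM with siNC, and 13.2, 14.1 and 12.4 CPM with the UHRF1 siRNA, against 48.3, 50.5 and 49 CPM with siNC. The groups separated in opposite directions, and the difference was 2.42 ± 0.14 (SE; adjusted p = 6.68e-13). BRCA2 was opposite in the same sense (0.51 and −1.02).

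**Figure D5:**
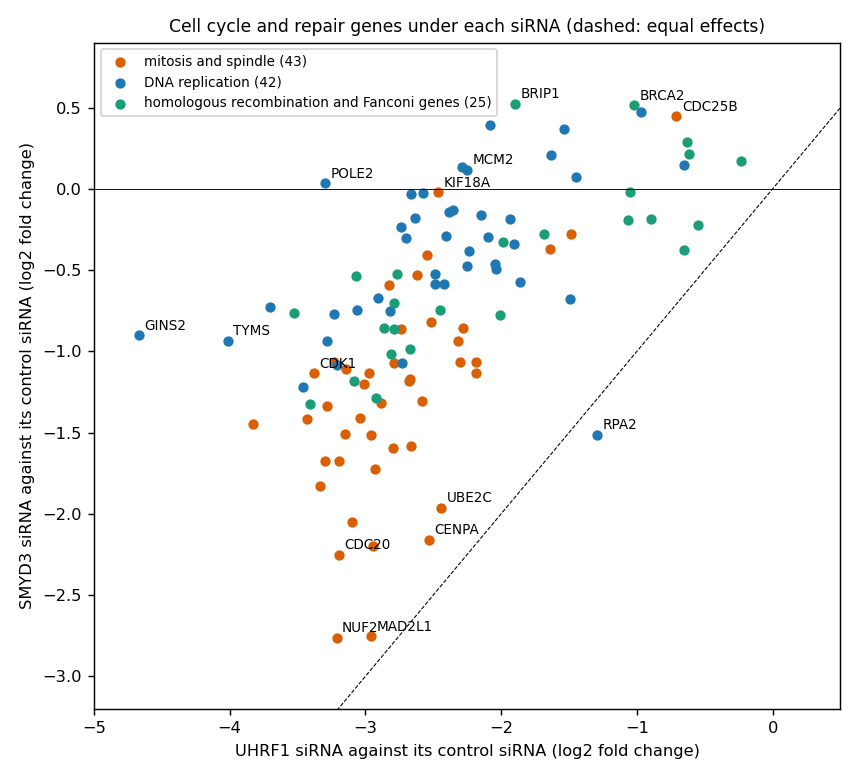
Log2 fold change with the SMYD3 siRNA (vertical axis) against that with the UHRF1 siRNA (horizontal axis) for tested genes of mitosis (43, orange), DNA replication (42, blue) and homologous recombination with the Fanconi pathway (25, green); the dashed line marks equal effects. Mitosis genes lie lower on the vertical axis (median −1.20) than replication genes (median −0.36), and RPA2 is the point on the other side of the dashed line.

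Promoter letters divided the mitosis list and the replication list. The cell cycle genes homology region (CHR) TTTGAA, on either strand, stood in 67.6% of 37 matched mitosis promoters and 2.86% of 35 matched replication promoters, against 9.83% of all matched tested genes and 15.4% of all promoters. The E2F motifs TTTGGCG or TTTCCCG, on either strand, stood in 54.3% of the replication promoters and 10.8% of the mitosis promoters, against 9.15% of matched tested genes and 6.11% of all promoters. CCAAT stood in 75.7% of the mitosis and 54.3% of the replication promoters, against 36.5% and 35.7%. Among shared falls with log2 values of at least 1, 34.1% of 164 matched promoters held TTTGAA. Windows are shown for 2 mitotic genes, CDC20 (chr1:43358763-43358961, plus strand) and CDK1 (chr10:60778130-60778215, plus strand), and for the helicase subunit MCM6 (chr2:135876487-135876635, minus strand), which fell in both (−0.58 and −2.42). Capitals mark TTTGAA in CDC20 and CDK1 and TTTGGCG in MCM6, or the reverse complement.
CDC20: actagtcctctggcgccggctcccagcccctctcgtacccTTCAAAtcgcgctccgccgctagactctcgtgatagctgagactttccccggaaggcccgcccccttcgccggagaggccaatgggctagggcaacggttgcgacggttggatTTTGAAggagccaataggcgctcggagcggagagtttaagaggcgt
CDK1: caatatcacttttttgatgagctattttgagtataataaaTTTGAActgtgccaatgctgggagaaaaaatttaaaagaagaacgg
MCM6: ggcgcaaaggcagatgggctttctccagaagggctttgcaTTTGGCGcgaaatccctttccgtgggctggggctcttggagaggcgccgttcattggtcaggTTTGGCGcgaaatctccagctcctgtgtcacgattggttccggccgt
Letters that are absent from a window say only that they are not in that window.

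Regulators of the G1 phase differed by member: of 25 tested, 2 rose and 13 fell with the SMYD3 siRNA (against 25.6% and 25.6% of all tested genes). With the UHRF1 siRNA 5 rose and 17 fell (against 33.2% and 33.9%). The difference was higher for 15 (60%, against 28.9%) and lower for 4 (16%, against 27.3%). E2F1 (−1.45 and −3.31) and CCNE2, a cyclin of late G1 (−1.20 and −3.01), fell in both and further with the UHRF1 siRNA. CCND1, the cyclin D that starts G1 kinase activity, fell further with the SMYD3 siRNA (−1.64, against −0.72), and its partner CDK6 rose further (1.31, against 0.37). CDKN1A (p21) had 331, 356 and 366 CPM with the SMYD3 siRNA, against 194, 210 and 190 CPM with siNC, and 189, 202 and 198 CPM with the UHRF1 siRNA, against 195, 187 and 181 CPM with siNC. Only the SMYD3 libraries stood clear of their controls, and the difference was 0.77 ± 0.09 (SE; adjusted p = 1.09e-07). CDKN2B (p15), an inhibitor of CDK4 and CDK6, had 99, 102 and 102 CPM against 101, 141 and 133 CPM in the SMYD3 experiment and 71.1, 74.2 and 73 CPM against 17.4, 15.8 and 18 CPM in the UHRF1 experiment. Its rise with the UHRF1 siRNA was 2.09 and the difference −2.40 ± 0.13 (SE; adjusted p = 2.7e-13), while its called fall with the SMYD3 siRNA (−0.31) was lost without si1SMYD3 replicate 1 or 3 and without control replicate 2 or 3 (adjusted p between 0.0585 and 0.125).

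Targets of p53 were called in varied directions: 17 of 24 rose and 3 fell with the SMYD3 siRNA (25.6% and 25.6% of all tested genes), and 12 rose and 8 fell with the UHRF1 siRNA (33.2% and 33.9%). The difference was higher for 11 (45.8%, against 28.9%) and lower for 7 (29.2%, against 27.3%). FAS, a death receptor, and CCNG1, a cyclin induced by p53, rose with the SMYD3 siRNA (0.81 and 0.39) and fell with the UHRF1 siRNA (−0.45 and −1.36). BBC3 (PUMA), a killer of the BCL2 family, fell with the SMYD3 siRNA (−0.39) and rose with the UHRF1 siRNA (1.91), a difference of −2.30 ± 0.15 (SE; adjusted p = 8.61e-12).

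Writers of DNA and histone methylation differed by member. DNMT1, the maintenance methyltransferase, had 99.6, 113 and 115 CPM with the SMYD3 siRNA, against 118, 102 and 94.7 CPM with siNC, and 120, 99.8 and 106 CPM with the UHRF1 siRNA, against 182, 188 and 191 CPM with siNC. The SMYD3 libraries overlapped their controls, the UHRF1 libraries did not, and the difference was 0.84 ± 0.11 (SE; adjusted p = 7.18e-07). DNMT3B, a de novo methyltransferase, fell in both (−0.33 and −2.50, difference 2.17 ± 0.14 SE, adjusted p = 2.5e-12), and DNMT3A was called in neither (0.00 and 0.13). SUV39H2, a histone H3 lysine 9 methyltransferase, rose with the SMYD3 siRNA (0.39; 0.30 and not called, adjusted p = 0.0686, without control replicate 2) and fell with the UHRF1 siRNA (−1.79). EZH2, of the Polycomb complex, fell in both (−0.19 and −1.85), while SETDB1, an H3 lysine 9 methyltransferase, was not called with the SMYD3 siRNA (0.04) and rose with the UHRF1 siRNA (0.76). Of 17 tested methylation genes, 4 rose and 3 fell with the SMYD3 siRNA (against 25.6% and 25.6% of all tested genes). With the UHRF1 siRNA 6 rose and 6 fell (against 33.2% and 33.9%). Of 24 heterochromatin genes, 2 rose and 8 fell with the SMYD3 siRNA, and 6 rose and 14 fell with the UHRF1 siRNA. Their difference was higher for 12 (50%, against 28.9% of all tested genes) and lower for 5 (20.8%, against 27.3%). DNMT1 shares exon sequence with S1PR2 on the same strand.

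Replication-dependent histone genes were higher in 10 of 15 differences (66.7%, against 28.9% of all tested genes) and lower in 2 (13.3%, against 27.3%). HIST1H1B, a linker histone gene, had 1.21, 1.05 and 1.04 CPM with the SMYD3 siRNA, against 0.358, 0.415 and 0.328 CPM with siNC, and 0.179, 0.468 and 0.287 CPM with the UHRF1 siRNA, against 1.17, 1.82 and 1.78 CPM with siNC. Its groups separated in opposite directions, with a difference of 3.93 ± 0.44 (SE; adjusted p = 5.3e-08). Most such histone transcripts end without a poly(A) tail, and these libraries were selected for poly(A).

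Among relatives of SMYD3, 3 of 8 differences were higher (37.5%, against 28.9% of all tested genes) and 5 lower (62.5%, against 27.3%). SETD7, a lysine methyltransferase of histone and other proteins, rose with the SMYD3 siRNA alone (0.64 and 0.09). The histone H4 lysine 20 enzymes KMT5B and KMT5A were not called with the SMYD3 siRNA (−0.15 and 0.01), although the KMT5B libraries did not overlap and its effect was a called fall under upper quartile scaling (−0.21, adjusted p = 0.0263) and without si1SMYD3 replicate 1 (−0.19, adjusted p = 0.0388). With the UHRF1 siRNA KMT5B rose (1.03) and KMT5A fell (−0.96).

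Germline genes, many of which are silenced by promoter methylation in body cells, were called in both directions in both experiments. With the SMYD3 siRNA 3 of 15 tested rose and 7 fell (against 25.6% and 25.6% of all tested genes). With the UHRF1 siRNA 4 rose and 7 fell (against 33.2% and 33.9%). PRAME, a cancer-testis antigen, fell in both (−1.32 and −0.25), further with the SMYD3 siRNA.

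Of 16 tested keratinocyte differentiation genes, 5 rose and 5 fell with the SMYD3 siRNA (median −0.09), against 25.6% and 25.6% of all tested genes. With the UHRF1 siRNA 12 rose and 2 fell (median 0.92), against 33.2% and 33.9%. The difference was lower for 12 (75%, against 27.3% of all tested genes) and higher for 2 (12.5%, against 28.9%). Their median control level was 7.98 CPM in the SMYD3 experiment and 2.61 CPM in the UHRF1 experiment, and its part in the difference was not tested. KLK7, a protease of skin shedding, had 7.61, 8.45 and 7.58 CPM with the SMYD3 siRNA, against 10.5, 11.4 and 11.6 CPM with siNC, and 3.34, 2.41 and 3.74 CPM with the UHRF1 siRNA, against 0.756, 0.579 and 0.795 CPM with siNC. It fell in one experiment and rose in the other without overlap, a difference of −2.66 ± 0.22 (SE; adjusted p = 2.29e-10). ZNF750, a driver of late differentiation, rose in both and more with the UHRF1 siRNA (0.33 and 2.22), and GRHL3, another differentiation factor, showed the opposite pattern (0.82 and −1.24).

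KRT17, a keratin of stressed and basal epithelium, had 258, 318 and 320 CPM with the SMYD3 siRNA, against 191, 300 and 295 CPM with siNC. With the UHRF1 siRNA it had 386, 373 and 367 CPM, against 29.9, 35.8 and 30.7 CPM with siNC. The SMYD3 libraries overlapped their controls, the UHRF1 libraries were far above theirs, and the difference was −3.35 ± 0.22 (SE; adjusted p = 3.43e-08), with a SMYD3 effect of 0.19 (adjusted p = 0.385). Keratins share sequence, so reads can be assigned to another family member. DSC3, a desmosomal cadherin of basal cells, rose with the SMYD3 siRNA (1.20) and fell with the UHRF1 siRNA (−1.32), and COL17A1, which anchors basal cells to the matrix, was opposite in the same sense (1.46 and −0.53). Of 22 basal genes, 11 rose and 3 fell with the SMYD3 siRNA (against 25.6% and 25.6% of all tested genes). With the UHRF1 siRNA 10 rose and 9 fell (against 33.2% and 33.9%).

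Among mesenchymal and matrix genes, which form 1 list, the difference was higher for 13 (44.8%, against 28.9% of all tested genes) and lower for 9 (31%, against 27.3%). MMP9, a gelatinase, had 3.14, 4.68 and 4.95 CPM with the SMYD3 siRNA, against 3.46, 4.63 and 3.57 CPM with siNC. Its levels were 160, 148 and 141 CPM with the UHRF1 siRNA, against 6.73, 6.79 and 5.53 CPM with siNC. It did not separate from control in the SMYD3 experiment and rose by 4.56 in the UHRF1 experiment, a difference of −4.40 ± 0.18 (SE; adjusted p = 1.44e-14). LOX, which crosslinks collagen, was opposite, with 1.75 and −0.56, as was LOXL2 (0.33 and −0.88). FN1, which encodes fibronectin, rose in both (0.73 and 0.82, difference −0.10 ± 0.14 SE, adjusted p = 0.59). Over 29 tested genes, 15 rose and 6 fell with the SMYD3 siRNA (against 25.6% and 25.6% of all tested genes). With the UHRF1 siRNA 11 rose and 13 fell (against 33.2% and 33.9%).

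Metabolic and stress programmes were shared to different degrees. Of the targets of NRF2, the antioxidant factor, 14 of 18 rose and 1 fell with the SMYD3 siRNA (median 0.68). Of all tested genes, 25.6% rose and 25.6% fell with that siRNA. With the UHRF1 siRNA 13 rose and 2 fell (median 0.75), against 33.2% and 33.9% of all tested genes. SLC7A11, the cystine importer, had 27.2, 24.8 and 25.4 CPM with the SMYD3 siRNA, against 9.25, 6.83 and 7.07 CPM with siNC, and 239, 254 and 249 CPM with the UHRF1 siRNA, against 105, 108 and 111 CPM with siNC. It rose in both without overlap, with a difference of 0.54 ± 0.11 (SE; adjusted p = 0.000289). The ferritin chains FTL and FTH1 rose by 1.06 and 1.07 with the SMYD3 siRNA and 1.33 and 1.26 with the UHRF1 siRNA. NQO1, a quinone reductase and standard NRF2 readout, was opposite (0.62 and −0.55, difference 1.18 ± 0.10 SE, adjusted p = 3.7e-10), and so was PGD of the pentose phosphate pathway (0.77 and −0.99).

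Hypoxia and glycolysis genes were higher with the SMYD3 siRNA for 15 of 26 differences (57.7%, against 28.9% of all tested genes) and lower for 5 (19.2%, against 27.3%), with a median of 0.34. VEGFA, the endothelial growth factor, rose with the SMYD3 siRNA (0.52) and fell with the UHRF1 siRNA (−0.74), and LDHA, the lactate dehydrogenase, did the same (0.39 and −0.25). In sterol synthesis, MSMO1 had 27.3, 25.4 and 25.1 CPM with the SMYD3 siRNA, against 70.9, 68.2 and 69.3 CPM with siNC, and 375, 411 and 416 CPM with the UHRF1 siRNA, against 176, 210 and 204 CPM with siNC. Its groups separated in opposite directions (difference −2.45 ± 0.10 SE, adjusted p = 2.67e-15). Of 26 tested sterol and fatty acid genes, 8 differences were higher (30.8%, against 28.9% of all tested genes) and 11 lower (42.3%, against 27.3%).

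Outputs of the ERK pathway, in which a kinase is among the reported SMYD3 substrates, were mixed. Of 21 tested, 7 rose and 9 fell with the SMYD3 siRNA (25.6% and 25.6% of all tested genes) and 4 rose and 13 fell with the UHRF1 siRNA (33.2% and 33.9%). There were 5 shared falls and 2 shared rises, against 12.2% and 12.5% of all tested genes. Of the opposite genes 5 were higher with the SMYD3 siRNA and 2 with the UHRF1 siRNA, against 7.04% and 6.41% of all tested genes. ETV4, an ETS factor, fell further with the SMYD3 siRNA (−1.99, against −0.41), while DUSP6, the ERK phosphatase, was not called with it (−0.02) and fell with the UHRF1 siRNA (−1.65). SPRY1, a feedback inhibitor, and EREG, an EGF receptor ligand, rose with the SMYD3 siRNA (1.65 and 1.36) and fell with the UHRF1 siRNA (−0.81 and −1.01). Of 23 genes of the unfolded protein and integrated stress response, 13 rose and 3 fell with the SMYD3 siRNA, 14 rose and 5 fell with the UHRF1 siRNA, and 8 differences were higher and 8 lower (34.8% each, against 28.9% and 27.3% of all tested genes). The chaperone HSP90B1 had 5285, 5250 and 5269 CPM with the SMYD3 siRNA, against 2449, 2393 and 2446 CPM with siNC, and 5254, 4875 and 5031 CPM with the UHRF1 siRNA, against 6345, 6315 and 6150 CPM with siNC. These abundant transcripts separated in opposite directions, a difference of 1.43 ± 0.10 (SE; adjusted p = 1.28e-11), whereas HERPUD1, a degradation factor of the endoplasmic reticulum, rose in both and more with the UHRF1 siRNA (0.76 and 1.79).

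Outside the lists, the strongest members of each class were of mixed function. Among shared rises, MUC1, a membrane mucin, had 540, 681 and 634 CPM with the SMYD3 siRNA, against 222, 227 and 202 CPM with siNC, and 291, 242 and 268 CPM with the UHRF1 siRNA, against 49.1, 49 and 45.9 CPM with siNC. It rose in both without overlap, more with the UHRF1 siRNA (−0.96 ± 0.11 SE, adjusted p = 1.31e-07). ITGB8, an integrin chain that activates TGF-β, rose by 1.58 and 1.66 (difference −0.08 ± 0.12 SE, adjusted p = 0.573). Among shared falls outside cell division, NKX1-2, a homeobox gene, fell in both (−2.81 and −2.68).

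Among opposite genes, GJA1 (connexin 43), a gap junction protein, had 64.9, 58.5 and 61.6 CPM with the SMYD3 siRNA, against 22.4, 20.1 and 20.1 CPM with siNC. The UHRF1 siRNA libraries had 6.78, 6.59 and 7.51 CPM, against 37.9, 41.5 and 40.1 CPM with siNC. All SMYD3 libraries lay above and all UHRF1 libraries below their controls, and the difference was 4.08 ± 0.11 (SE; adjusted p = 1.44e-18). MME (neprilysin), a membrane peptidase, followed (1.69 and −1.54), and PLA2G2F, a secreted phospholipase of the epidermis, was the reverse (−2.85 and 2.05, difference −4.90 ± 0.20 SE, adjusted p = 2.79e-15).

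Specific to the SMYD3 siRNA, HMGA1, an architectural chromatin protein, had 223, 304 and 293 CPM with the siRNA, against 1021, 830 and 702 CPM with siNC. In the UHRF1 experiment it had 1181, 1259 and 1221 CPM with the siRNA, against 1342, 1206 and 1205 CPM with siNC. It fell (−1.64) in the SMYD3 experiment, overlapped control in the UHRF1 experiment, and differed by −1.60 ± 0.17 (SE; adjusted p = 1.14e-07). LUCAT1, a long noncoding RNA, rose by 2.21 with the SMYD3 siRNA and was not called with the UHRF1 siRNA (0.05). PCTP, a phosphatidylcholine carrier, and PMP22, a myelin and epithelial membrane protein, fell with the SMYD3 siRNA alone (−1.62 and 0.08 for PCTP, −1.72 and −0.06 for PMP22).

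Specific to the UHRF1 siRNA, SOX4, a transcription factor of progenitor and tumour cells, had 150, 143 and 171 CPM with the SMYD3 siRNA, against 141, 198 and 185 CPM with siNC. With the UHRF1 siRNA it had 180, 172 and 176 CPM, against 19.4, 19.2 and 19.8 CPM with siNC. The SMYD3 libraries overlapped their controls, the UHRF1 libraries did not, and the difference was −3.35 ± 0.13 (SE; adjusted p = 5.85e-15); without control replicate 1 the SMYD3 effect became a called fall (−0.31, adjusted p = 0.0135). NECTIN4, an adhesion molecule of epithelial tumours, rose by 2.90 and EMP2, a membrane protein, fell (−2.63) with the UHRF1 siRNA, with uncalled SMYD3 effects of −0.05 and 0.15. The EMP2 libraries of the SMYD3 experiment did not overlap, however, and without si1SMYD3 replicate 1 its effect there was a called rise (0.19, adjusted p = 0.0313). For the 439 specific rises of at least 1 on the log2 scale, the median control level was 2.89 CPM in the SMYD3 experiment and 0.968 CPM in the UHRF1 experiment. The part of this starting level in their class was not tested.

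A second SMYD3 agent in the series, an antisense oligonucleotide set against PBS in its own table (2 libraries each), was looked up for the classes. The cells had interferon-β as well. The oligonucleotide raised 12.2% and lowered 10.9% of the 16651 tested genes that its table also held. Of 87 SMYD3 siRNA specific rises of at least 1 on the log2 scale, 5.75% rose and 5.75% fell with it, and of 120 such falls, 7.5% rose and 9.17% fell. Of 83 shared rises of that size, 18.1% rose and 13.3% fell, and of 241 shared falls, 9.54% and 14.5%. Of 62 opposite genes higher with the SMYD3 siRNA, 22.6% rose and 19.4% fell, and of 68 higher with the UHRF1 siRNA, 5.88% and 14.7%. Of 401 UHRF1 siRNA specific rises, 9.23% rose and 12.7% fell, and of 522 such falls, 10.5% and 10.5%. In the interferon list 62 of 64 genes rose and 1 fell with the oligonucleotide, with a median log2 fold change of 0.97. Not every list moved as it did with the SMYD3 siRNA. The replication list (42 genes) had 17 rises and 0 falls with the oligonucleotide, against 4 and 25 with the SMYD3 siRNA. Among 43 mitosis genes 1 rose and 13 fell (median −0.13), against 1 and 41. Among 18 NRF2 targets 1 rose and 5 fell, against 14 and 1. Single genes also varied. HMGA1 (0.17, adjusted p = 0.0993), GJA1 (0.11, adjusted p = 0.337), IL1B (−0.24, adjusted p = 0.0651) and ERAP1 (0.20, adjusted p = 0.0563) were not called with the oligonucleotide. IL1A (0.55), B2M (0.33) and CXCL10 (3.45) rose with it.

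Summed markers of squamous epithelium exceeded those of other cell types in all groups, and the other sums were not level. The summed level of 7 squamous epithelial markers ranged between 1846 and 2014 CPM with the SMYD3 siRNA and between 1388 and 1468 CPM with its siNC, and between 3936 and 4130 CPM with the UHRF1 siRNA and between 3124 and 3248 CPM with its siNC. The 12 leukocyte markers summed to between 28.7 and 32.9 CPM with the SMYD3 siRNA and between 24.1 and 25.2 CPM with its siNC, and to between 15.1 and 15.4 CPM with the UHRF1 siRNA and between 5.34 and 7.14 CPM with its siNC. The B cell marker MS4A1 was at 0 in all 4 groups. The 9 fibroblast markers summed to between 240 and 285 CPM with the SMYD3 siRNA and between 146 and 170 CPM with its siNC, and to between 504 and 579 CPM with the UHRF1 siRNA and between 119 and 120 CPM with its siNC. In the UHRF1 experiment most of that sum was COL1A1, with 553, 482 and 477 CPM with the siRNA, against 81.8, 83.7 and 81.3 CPM with siNC. The 7 endothelial markers summed to between 8.3 and 8.62 CPM with the SMYD3 siRNA and between 14.4 and 16.4 CPM with its siNC, and to between 22.8 and 23.8 CPM with the UHRF1 siRNA and between 8.55 and 9.17 CPM with its siNC. The part of these markers in the matrix and chemokine differences was not tested.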

How the data were processed

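Each experiment came as a table of whole-number counts per gene that the authors deposited, unnormalised. The submitters' processing notes name hg38, bcl2fastq and Bowtie. For the counting tool, its annotation and whether strand was used, no source used here gives an answer. Libraries were stranded and poly(A)-selected, per the labels' protocols. There were 23588 lines without a symbol in the SMYD3 table: 20032 were named by Ensembl ID and the rest, with 0.039% to 0.0477% of reads, were left out. Mitochondrially encoded genes were left out of both tables.

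Genes had to pass filterByExpr in both tables (18642 in the SMYD3 table, 18120 in the UHRF1 table, 17119 in both). TMM factors were computed within each table. Each effect was fitted within its table and the difference in 1 model of 4 group means over the 12 libraries, with edgeR 4.0.16 (quasi-likelihood test, two-sided, Benjamini-Hochberg over the tested genes) in R 4.3.3. DESeq2 1.42.0 and limma 3.58.1 were alternatives, with other scalings and filters, each replicate left out in turn and the replicate number as a block. Tables and plots used Python 3.11.15, pandas 2.3.3 and matplotlib 3.10.9. The fits were tested on simulated data. Replicates of a group differed by more than sampling noise, so none was counted as a duplicate.

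The comparison and its 30 gene lists (720 entries, 715 with a line in both tables) were chosen with earlier results of these data known. The rule named 198 genes: a fixed set of 16, for each list the 3 largest called differences and the 2 strongest shared members, and the strongest genes of each class. Other list members given with values were chosen after their values were seen. The knockout table was not used. A few genes of the lists are counted but not reported by name here.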

Additional observations from a re-analysis of the deposited data

How the results depend on the processing

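Of 13389 gene values recomputed under alternatives, 13244 kept their direction and side of the threshold, 95 lost the call, 50 gained it and 0 reversed, and 932 of 951 summary values held. With 10 or more reads required in every library, the SMYD3 siRNA specific rises of at least 1 on the log2 scale numbered 61, the median difference of keratinocyte differentiation was −0.953 and Pearson's r 0.231. With no filter beyond 1 read per table, which adds low-count genes, 162 such rises and 198 such falls were called, 704 genes rose and 1077 fell by at least 1 with the SMYD3 siRNA, and r was 0.0738. Restricting to genes whose control levels lay within 8-fold between the tables, an alternative chosen after seeing the data, gave a keratinocyte median of −0.828 and r of 0.228. Thinning the UHRF1 table to the depth of the SMYD3 table gave −0.894 and 0.223. Without the cell cycle lists r was 0.195. At an adjusted p under 0.01, 802 opposite genes were higher with the SMYD3 siRNA and 724 with the UHRF1 siRNA. Leaving out 1 replicate at a time gave r between 0.187 and 0.236. Apart from the thresholds and filters themselves, the cause of these changes was not tested.

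Replicates with the same number did not deviate together throughout (correlations of 0.232, 0.247 and −0.017 in the SMYD3 experiment and 0.00213, 0.0103 and 0.0141 in the UHRF1 experiment), so the numbers were not taken as pairs. With the replicate block, 6 gene values gained a call, among them the NUF2 difference (0.46, adjusted p = 0.0475) and the SMYD3 effect on KRT17 (0.21, adjusted p = 0.0482), and 0 lost one.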
